A study of Homo sapiens with 4 samples.

Results

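The 39 human HOX genes encode homeodomain transcription factors that give cells their position along the body axis. Their mRNAs were taken as the lines of the deposited table whose gene symbol is HOXA, HOXB, HOXC or HOXD followed by a paralog number, which gave 39 of 26490 genes. The table comes from PAR-CLIP in HEK293, a human embryonic kidney cell line, and PAR-CLIP maps the RNA that a protein touches by crosslinking it to RNA labeled with 4SU (4-thiouridine). Tagged DHX36 was stably introduced under tetracycline control in both cell lines, which therefore carry it on top of the cells' own DHX36. FH-DHX36 (isoform 2) is the FLAG/HA-tagged DEAH-box helicase, and FH-DHX36-E335A (isoform 1) carries the exchange that makes the helicase catalytically dead. Tetracycline at 500 ng/ml was given for 15 h to switch the transgene on, cells were irradiated at 365 nm for 5 min, and RNA was recovered by FLAG immunoprecipitation. Each cell line had 2 biological replicates, but the table holds 1 value per gene and cell line, so no spread between replicates could be given and no difference could be tested. The isoform and the mutation differ together between the cell lines and cannot be told apart. All values below are the authors' values or were computed from them, and every interval covers counting error only.

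HOX genes lie in 4 genomic groups, HOXA to HOXD, which are called complexes here to keep them apart from PAR-CLIP clusters. Within a complex all genes point the same way and are numbered by paralog group, from low numbers at the 3' end, used in anterior tissues, to high numbers at the 5' end, used in posterior tissues. DHX36 unwinds G-quadruplexes (G4s), structures that guanine runs in RNA or DNA can form. A PAR-CLIP cluster is a stretch of overlapping reads with the T-to-C conversions that mark crosslinked 4SU, and a crosslinked read is a read within such clusters. NXPM, the authors' normalized score, relates the crosslinked reads, as a share of the whole PAR-CLIP, to the abundance of the RNA. RPM stands below for the crosslinked reads of a gene or group per 1000000 crosslinked reads of the PAR-CLIP.

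On GRCh37 the 11 HOXA genes lie on chromosome 7 on the minus strand, and the 10 HOXB genes at chr17:46605888-46806112, also on the minus strand. The 9 HOXC genes lie at chr12:54332615-54449814 and the 9 HOXD genes at chr2:176957449-177055635, both on the plus strand. The stretches of G-runs printed next were chosen because they lie in 3'UTRs that carried all or most crosslinked reads of their gene (HOXC4, HOXC11 and HOXC9), because their gene held the most reads (HOXA11), or because their gene had no PAR-CLIP cluster (HOXB1 and HOXD12). Positions of PAR-CLIP clusters were not used here, so that a match could not be placed inside or outside a cluster. The pattern searched on the sense strand was at least 4 runs of at least 2 G (GG) or at least 3 G (GGG), separated by loops of 1 to 7 nt of any base, and matches within a region do not overlap. A loop may itself be G, so that a long run can count as more than 1 run. The HOXC4 line therefore shows fewer than 4 separate stretches of capitals. Capitals mark the runs of at least 3 G in the first 4 lines and of at least 2 G in the last 2, and each stretch is exonic in the 3'UTR of the canonical GENCODE transcript.
HOXC4, chr12:54449532-54449557, plus strand: GGGGGGGGGtgtGGGaggagaGGGGG
HOXC11, chr12:54369208-54369234, plus strand: GGGcccttttGGGGGcGGGGGGaGGGG
HOXB1, chr17:46606746-46606767, minus strand: GGGGGtGGGaGGGGGGatGGGG
HOXD12, chr2:176966082-176966104, plus strand: GGGaggaaaaGGGaGGGaaGGGG
HOXC9, chr12:54396932-54396955, plus strand: GGagctgaGGGGtgaGGGctGGGG
HOXA11, chr7:27222386-27222405, minus strand: GGctGGaattGGGtGGGGGG

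The pattern with runs of at least 2 G was found in the 3'UTR of 31 of 39 HOX genes (79.5%), against 64.7% of 19063 protein-coding genes with a 3'UTR. Among HOX genes it was as frequent with as without an FH-DHX36-E335A cluster, at 23 of 29 (79.3%) and 8 of 10 (80.0%), with 2.39 and 2.73 matches per kb of 3'UTR. Over all protein-coding genes there were 1.71 matches per kb, and over genes with an FH-DHX36-E335A cluster 1.60. Runs of at least 3 G were found in 11 of 39 HOX 3'UTRs (28.2%), 9 of them in genes with an FH-DHX36-E335A cluster, against 14.2% of all protein-coding 3'UTRs. In the CDS the pattern with at least 2 G was present in 37 of 39 HOX genes (94.9%, against 84.4% of protein-coding genes), and in the 5'UTR in 15 of 39 (38.5%, against 53.8%). The richest 3'UTRs were those of HOXC11, with 12 matches, and of HOXB13, with 11, which are a gene with and a gene without clusters. A match describes the letters only and does not show that a G4 forms or that DHX36 is bound there.

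FH-DHX36-E335A had clusters on 29 of 39 HOX mRNAs (74.4%, 95% Wilson interval 58.9 to 85.4%), against 34.5% of all 26490 genes and 48.1% of the 17920 protein-coding genes in the table. FH-DHX36 had clusters on 20 of 39 (51.3%, 36.2 to 66.1%), against 22.4% of all genes and 31.2% of protein-coding genes. All 20 were among the 29, so that 20 of 39 HOX genes had clusters in both PAR-CLIPs, against 21.4% of all genes. Over all genes, 5669 of the 5930 with FH-DHX36 clusters likewise had FH-DHX36-E335A clusters, so that this overlap is not particular to HOX genes. The FH-DHX36-E335A PAR-CLIP held 8752127 crosslinked reads and the FH-DHX36 PAR-CLIP 2160413, a ratio of 4.05, so that the first could list genes at a lower share of reads. The DHX36 gene itself held 30909 and 19208 crosslinked reads. Leaving it out of the totals together with the mitochondrially encoded genes kept the median HOX ratio given below at 1.10.

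Genes with FH-DHX36-E335A clusters alone were common in the whole table. There, 5669 of 9131 genes with FH-DHX36-E335A clusters had FH-DHX36 clusters as well, against 20 of 29 HOX genes. The 9 HOX genes with FH-DHX36-E335A clusters alone were HOXA7, HOXB5, HOXB8, HOXC6, HOXC8, HOXD3, HOXD4, HOXD8 and HOXD9. They had 24 to 253 reads each with a median of 49, and the 20 genes listed in both had 72 to 3329 with a median of 804, so that the ranges overlapped. HOXC8, a gene of thoracic identity, had the most of these with 253 reads in 6 clusters, followed by HOXB5 with 239 reads in 4 and HOXD8 with 230 reads in 6. Scaled by the ratio of the totals, the 9 genes would correspond to 5.92 (HOXB8) to 62.5 reads (HOXC8) in FH-DHX36, where the fewest reads of any gene with a cluster were 6 and the fewest of a HOX gene 17 (HOXA4). HOXA7 (32 reads), HOXB8 (24), HOXD3 (28) and HOXD4 (26) each rested on 1 cluster, and HOXD9 (49 reads) on 2.

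Neither PAR-CLIP had a cluster on 10 HOX mRNAs, among them HOXA2, HOXA6, HOXB1, HOXB13, HOXC5, HOXC12, HOXD1, HOXD12 and HOXD13. Both genes of paralog group 12, HOXC12 and HOXD12, belonged to these. RNA abundance could be recovered only for genes with a cluster, so that a gene that was not expressed and a gene that was not bound cannot be told apart.

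**Figure D1:**
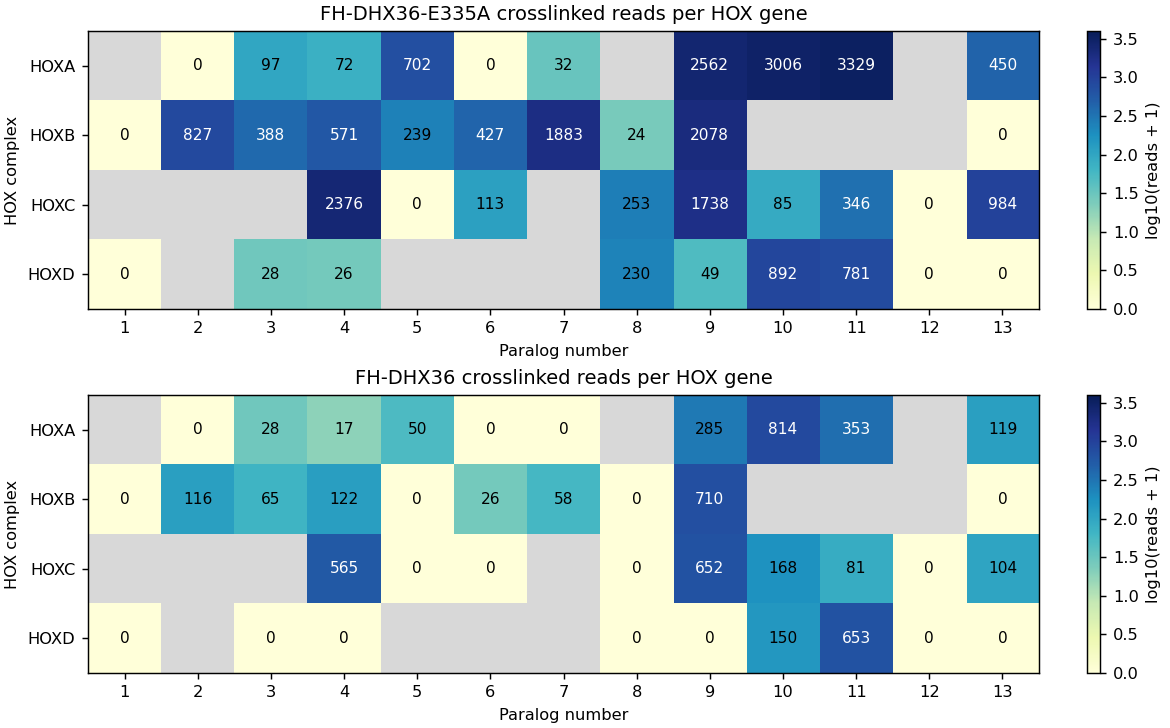
Crosslinked reads of each HOX gene, with the 4 HOX complexes as rows and the paralog numbers 1 to 13 as columns, for FH-DHX36-E335A (top) and FH-DHX36 (bottom). Color gives log10 of reads plus 1, printed numbers are the reads, and gray fields are paralogs that do not exist or are not reported here. Paralog number 12 holds no reads, and in FH-DHX36 the highest values sit at numbers 9 to 11 and at HOXC4.

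The HOX genes together held 24588 reads in 173 clusters with FH-DHX36-E335A and 5136 reads in 61 clusters with FH-DHX36. This was 2809 and 2377 RPM, a ratio of 1.18 (exact 95% interval 1.15 to 1.22). The reads were concentrated on few genes. In FH-DHX36-E335A, HOXA11 alone held 13.5% of all HOX reads, the top 5 genes 54.3% and the top 10 genes 80.0%. In FH-DHX36, HOXA10 held 15.8%, the top 5 genes 66.1% and the top 10 genes 87.1%.

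HOXA11, one of the paralogs needed for kidney and forearm formation, had 3329 reads in 12 clusters with FH-DHX36-E335A and 353 reads in 2 clusters with FH-DHX36. HOXA10, a regulator of the uterus and of blood cells, had 3006 reads in 14 clusters and 814 in 9. For its neighbor HOXA9, known from leukemia, 2562 reads in 12 clusters stood against 285 reads in 1 cluster. These 3 adjacent genes made up most of the HOXA complex. HOXC4 had 2376 reads in a single FH-DHX36-E335A cluster and 565 reads in 2 FH-DHX36 clusters. HOXB9 had 2078 reads in 14 clusters and 710 in 8, and HOXC9, which sets thoracic motor neuron identity, had 1738 in 5 and 652 in 4. HOXB7 was the seventh gene with at least 1000 FH-DHX36-E335A reads, at 1883 reads in 6 clusters, but had only 58 reads in 1 cluster with FH-DHX36.

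Exonic reads are here those assigned to the 5'UTR, CDS or 3'UTR. Whether reads outside all annotation categories lie in exons is not given in the sources used here. Such reads and intron reads cannot be set against the length of the mature transcript. Only exonic reads were therefore compared per kb of canonical transcript, an alternative added after the data were seen. HOXC4 had 1391 exonic FH-DHX36-E335A reads per kb, followed by HOXC9 (1179) and HOXA10 (1159), and then by HOXA9 (679), HOXB9 (542), HOXD10 (473) and HOXB2 (462). HOXA11 (382) and HOXB7 (134), which were among the highest by total reads, came lower, since most of their reads were not assigned to these regions. In FH-DHX36 the order was HOXC9 (387 exonic reads per kb), HOXC4 (331), HOXA10 (320), HOXD11 (205) and HOXB9 (199.5). HOXC4, HOXC9 and HOXA10 were thus the 3 densest HOX mRNAs in both PAR-CLIPs.

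By complex, HOXA had 8 of 11 genes with clusters in FH-DHX36-E335A and 7 in FH-DHX36, with 1171 and 771 RPM. HOXB had 8 of 10 and 6, with 735 and 508 RPM. HOXC had 7 of 9 and 5, with 674 and 727 RPM. HOXD, with 6 of 9 and only 2, had the fewest reads, at 229 and 372 RPM. The ratio of the FH-DHX36-E335A to the FH-DHX36 share was 1.52 (1.44 to 1.60) for HOXA, 1.45 (1.36 to 1.55) for HOXB, 0.927 (0.877 to 0.981) for HOXC and 0.617 (0.568 to 0.670) for HOXD. The HOXD value turns on HOXD11, which held 81.3% of the FH-DHX36 reads of its complex. With exonic reads only, scaled to all exonic reads, the ratios were 1.16 for HOXA, 1.24 for HOXB, 0.915 for HOXC and 1.12 for HOXD, so that HOXD changed direction.

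By paralog number, the posterior genes held most reads. Paralogs 1 to 3 (8 genes, 4 with FH-DHX36-E335A clusters) held 1340 FH-DHX36-E335A reads, paralogs 4 to 8 (15 genes, 13 with clusters) 6948 and paralogs 9 to 13 (16 genes, 12 with clusters) 16300. In FH-DHX36 the same ranges held 209, 838 and 4089 reads, on 3, 6 and 11 genes. Posterior paralogs thus had nearly the same share in both PAR-CLIPs, at 1862 and 1893 RPM, a ratio of 0.984 (0.951 to 1.02). Paralogs 4 to 8 had 794 and 388 RPM, a ratio of 2.05 (1.90 to 2.20). With exonic reads only, the ratios were 0.914 for paralogs 9 to 13, 1.53 for 4 to 8 and 2.20 for 1 to 3. Among single paralog groups with reads in both PAR-CLIPs the ratio ran from 0.869 (0.813 to 0.929) for group 10 to 8.15 (6.28 to 10.8) for group 7, whose FH-DHX36 reads all came from HOXB7. Group 8 had 507 FH-DHX36-E335A reads and was listed at 0 with FH-DHX36.

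For the 20 genes with clusters in both PAR-CLIPs, the share of reads could be compared gene by gene. The FH-DHX36-E335A share was higher for 13 and the FH-DHX36 share for 7, and the median ratio was 1.10, against 1.09 over all 5669 genes with clusters in both. By clusters in place of reads the median ratio was 0.556, against 0.834 over all genes, so that the direction turned. A share at least 2 times higher with FH-DHX36-E335A was seen for 6 of 20, against 28.6% of these 5669 genes, and at least 2 times higher with FH-DHX36 for 2 of 20, against 24.8%. The Wilson intervals of the HOX percentages were 14.5 to 51.9% for the first count and 2.79 to 30.1% for the second. Both included their background, so that neither count stood apart from it. With exonic reads only, which 18 HOX genes had in both PAR-CLIPs, 4 of 18 were at least 2 times higher with FH-DHX36-E335A, against 29.2% of 4790 genes, and 2 of 18 with FH-DHX36, against 26.7%. These 4 were HOXD10 (16.2, on 13 FH-DHX36 reads), HOXB3 (5.997, on 15), HOXB6 (2.80) and HOXA5 (2.50). The quartiles of the HOX ratios, 0.897 and 2.25, are set against 0.503 and 2.25 over all genes.

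By all reads, HOXB7 lay farthest to the FH-DHX36-E335A side, with 215 and 26.8 RPM and a ratio of 8.01 (6.17 to 10.6). HOXB6 followed at 48.8 and 12.03 RPM (ratio 4.05, 2.73 to 6.28) and HOXA5, a gene required for lung formation, at 80.2 and 23.1 (ratio 3.47, 2.60 to 4.71). The ratios of these 3 genes were larger than the counting error allows, but without replicates it is not known how far they vary between cultures. HOXC13, which acts in hair follicles, had a ratio of 2.34 (1.91 to 2.89), HOXA11 of 2.33 (2.09 to 2.60) and HOXA9 of 2.22 (1.96 to 2.52). On exonic reads HOXA11 changed direction, to 0.719 (1019 and 353 reads), and HOXC13 was at 1.65 (688 and 104 reads). HOXA9 and HOXB7 had no FH-DHX36 reads assigned to the 5'UTR, CDS or 3'UTR, against 1402 and 183 with FH-DHX36-E335A. On the FH-DHX36 side lay HOXC10 and HOXD11, both posterior genes of lumbar and sacral identity. HOXC10 had 9.71 and 77.8 RPM, a ratio of 0.125 (0.0951 to 0.163). It was the only HOX gene with more reads in FH-DHX36 before scaling, with 168 against 85. HOXD11 had 89.2 and 302 RPM, a ratio of 0.295 (0.266 to 0.328). Both kept this side on exonic reads, at 0.110 and 0.367.

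The other 12 genes lay within 2 times of an equal share. For HOXC4 (1.04, 0.947 to 1.14), HOXA4 (1.05, 0.610 to 1.89), HOXC11 (1.05, 0.826 to 1.36), HOXB4 (1.16, 0.949 to 1.42), HOXA13 (0.933, 0.761 to 1.15) and HOXA3 (0.855, 0.557 to 1.35) the counting interval included 1. HOXC9 (0.658) and HOXB9 (0.722) had the higher share in FH-DHX36, and HOXB2 (1.76), HOXB3 (1.47) and HOXD10 (1.47) in FH-DHX36-E335A. HOXA10, at 0.912 (0.843 to 0.986), was close to equal. Across the 20 genes the rank correlation of FH-DHX36-E335A with FH-DHX36 reads was 0.666, and it was 0.630 across all 5669 genes. The reads of both PAR-CLIPs share the same transcripts and hence their length and abundance.

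**Figure D2:**
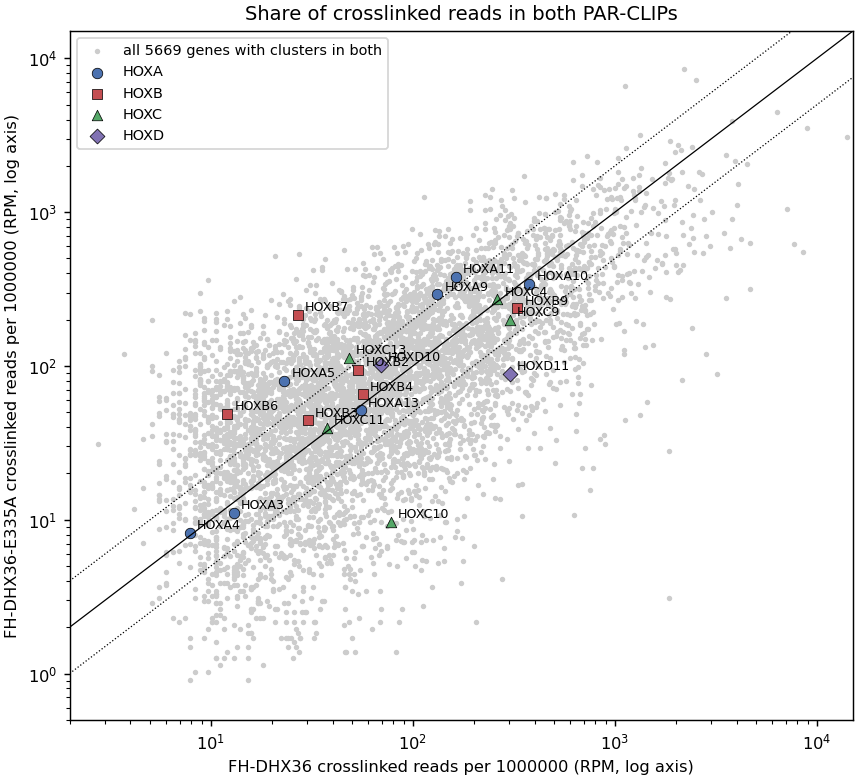
Crosslinked reads per 1000000 (RPM) in FH-DHX36 (x axis) and FH-DHX36-E335A (y axis), both on log axes, for all 5669 genes with clusters in both PAR-CLIPs (gray) and the 20 HOX genes among them, marked by complex. The solid line is an equal share and the dotted lines are 2 times higher or lower. HOXB7, HOXB6 and HOXA5 lie highest above the lines, and HOXC10 and HOXD11 below them.

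The 3'UTR held more HOX reads than any other region in both PAR-CLIPs. With FH-DHX36-E335A, 55.02% of the HOX reads (54.4 to 55.6%) lay in 3'UTRs, 13.4% in the CDS, 2.12% in 5'UTRs and 1.29% in introns, and 28.1% lay outside these 4 annotation categories. Over all genes the shares were 53.3%, 16.9%, 3.86% and 4.48%, with 21.4% outside. With FH-DHX36, HOX reads were 49.1% in 3'UTRs (47.7 to 50.5%), 26.7% in the CDS, 2.24% in 5'UTRs and 2.88% in introns, and all genes had 38.4%, 28.4%, 7.97% and 8.51%. HOX mRNAs thus had a lower 5'UTR and intron share than all genes in both PAR-CLIPs. Their 3'UTR share was near that of all genes with FH-DHX36-E335A and above it with FH-DHX36. By clusters in place of reads, the 5'UTR share with FH-DHX36-E335A was the higher one, at 6.36% of HOX clusters against 4.12% of all clusters. The FH-DHX36 3'UTR shares were then alike, at 41.0% and 40.8%.

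Per kb of annotated sequence, the 29 HOX genes with FH-DHX36-E335A clusters had 426 3'UTR reads, 124 CDS reads and 99.4 5'UTR reads. The 8616 protein-coding genes with clusters had 232, 88.4 and 180. For the 20 HOX genes with FH-DHX36 clusters the densities were 107 reads per kb for the 3'UTR, 72.1 for the CDS and 39.2 for the 5'UTR, against 63.6, 53.4 and 138 over 5592 genes. By this measure, the 5'UTR was the region in which HOX mRNAs had the lower value in both PAR-CLIPs. HOX 5'UTRs are short, with a median of 88 nt, against 136 nt over all protein-coding genes. The reads were assigned to regions by the authors' annotation, but the lengths are those of a single canonical transcript per gene. HOXA10 thus had 73 FH-DHX36-E335A reads on a canonical 5'UTR of 14 nt, or 5214 reads per kb. The 5'UTR values can therefore not be taken as true densities, and no conclusion is drawn from their difference.

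The 3'UTR held over 50% of the reads in 16 of 29 HOX genes with FH-DHX36-E335A, against 49.4% of all genes with clusters, and in 8 of 20 with FH-DHX36, against 35.9%. Annotation outside the 4 categories held over 50% in 3 of 29 (HOXA11, HOXB7 and HOXD9), against 12.6%, and in 3 of 20 with FH-DHX36 (HOXA9, HOXB7 and HOXD10), against 10.4%. The CDS held over 50% in 2 of 29 genes with FH-DHX36-E335A, against 17.1%, and in 6 of 20 with FH-DHX36, against 27.5%.

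The complexes differed in where their reads lay. HOXC reads were 87.9% in 3'UTRs with FH-DHX36-E335A (87.0 to 88.7%) and 91.4% with FH-DHX36 (89.9 to 92.7%). Without HOXC4, its gene with the most FH-DHX36-E335A reads, the share was still 79.7%, and without HOXC9, its gene with the most FH-DHX36 reads, 94.1%. HOXB reads were 28.8% in 3'UTRs with FH-DHX36-E335A and 20.2% in FH-DHX36, and the CDS held 24.9% and 40.0%. Without HOXB9 the HOXB 3'UTR share was 28.3% with FH-DHX36-E335A but 42.1% with FH-DHX36. HOXA stood between, at 50.2% and 46.9%. Without HOXA11 the HOXA share was 63.2% with FH-DHX36-E335A, and without HOXA10 it was 47.8% with FH-DHX36. HOXD went from 67.2% with FH-DHX36-E335A to 10.3% with FH-DHX36, where only HOXD10 and HOXD11 were listed. Without HOXD10 the HOXD share with FH-DHX36-E335A was 47.8%, so that the order of HOXA and HOXD turned on single genes. Reads outside the 4 categories count in these shares, at 36.2% for HOXA, 37.8% for HOXB, 7.24% for HOXC and 17.4% for HOXD with FH-DHX36-E335A. Within each complex single genes still ranged widely, from 23.3 to 100% in 3'UTRs for HOXC and from 0 to 96.7% for HOXB with FH-DHX36-E335A.

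In paralog group 4, nearly all reads lay in 3'UTRs, with HOXC4 holding most of them. Of its 3045 FH-DHX36-E335A reads 98.5% lay in 3'UTRs, and of its 704 FH-DHX36 reads 100%. HOXC4 reads were all in the 3'UTR in both PAR-CLIPs, as were those of HOXA4 (72 and 17 reads). HOXB4, a gene that promotes self-renewal of blood stem cells, had 552 of 571 reads in the 3'UTR in 1 cluster and 19 in the 5'UTR with FH-DHX36-E335A, and all 122 reads in the 3'UTR with FH-DHX36. The 3'UTR of HOXC4 holds a stretch with runs of at least 3 G, printed above. Those of HOXB4 and HOXD4 also hold such a stretch, and that of HOXA4 holds none. HOXD4, the fourth member, had 26 reads, all in the 5'UTR. Group 4 was followed by HOXC11, whose reads were all in the 3'UTR in both PAR-CLIPs (346 in 4 clusters and 81 in 2), and by HOXC9.

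Among the genes with the most reads, HOXA10 had 2307 of 3006 FH-DHX36-E335A reads in the 3'UTR (76.7%), with 565 more in the CDS and 73 in the 5'UTR. With FH-DHX36, 374 of its 814 reads were in the 3'UTR and 440 in the CDS, so that the CDS held the larger part. HOXC9 had 1604 of 1738 reads in the 3'UTR, in 1 cluster, and 134 in the CDS, and with FH-DHX36 571 of 652 in the 3'UTR and 81 in an intron. Its 3'UTR carried 2419 and 861 reads per kb, close to the 2880 and 685 of HOXC4. HOXC13 had 651 of 984 reads in the 3'UTR and 37 in the CDS, and with FH-DHX36 50 and 54. HOXA13, needed for digits and the urogenital tract, had 339 of 450 reads in the 3'UTR and none in the CDS, while 102 of its 119 FH-DHX36 reads were in the CDS. HOXC10 had 74 of 85 reads in the 3'UTR and, with FH-DHX36, all 168 in 1 3'UTR cluster.

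HOXB2, a gene of hindbrain segments, was the only HOX gene with over 50% of its reads in the CDS in both PAR-CLIPs. It had 692 of 827 FH-DHX36-E335A reads in the CDS (83.7%), 85 in the 3'UTR and 50 in introns. Of its 116 FH-DHX36 reads, 97 lay in the CDS (83.6%). HOXA3 (100%) and HOXA13 (85.7%) had a higher CDS share than this with FH-DHX36. HOXB9 was mixed, with 786 CDS reads, 616 from the 3'UTR and 676 outside the 4 categories with FH-DHX36-E335A. With FH-DHX36 it had 342 in the CDS, 115 in the 5'UTR, 59 in the 3'UTR, 17 in introns and 177 outside, and was the only HOX gene with FH-DHX36 reads in the 5'UTR. HOXB8 had all of its 24 reads in the CDS. HOXA5 had 380 3'UTR reads, 133 intron reads and 121 CDS reads, and with FH-DHX36 20 in the 3'UTR and 30 in the CDS. HOXD11 had 375 3'UTR reads, 139 CDS reads and 267 reads outside the 4 categories, and with FH-DHX36 83, 266 and 304, so that the outside part was the largest there. For HOXA3, which acts in the thymus and parathyroid, 71 of 97 reads lay in the 3'UTR and 26 in the CDS, and all 28 FH-DHX36 reads in the CDS.

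Most HOX reads in 5'UTRs belonged to the HOXB complex, with 394 of 522 FH-DHX36-E335A reads and all 115 FH-DHX36 reads. Intron reads were spread, with 155 of 316 and 67 of 148 in HOXB. HOXB3 had 220 of 388 FH-DHX36-E335A reads in the 5'UTR and 27 in introns, while 50 of its 65 FH-DHX36 reads lay in introns and 15 in the 3'UTR. HOXB6 had 135 of 427 in the 5'UTR, 112 in the 3'UTR, 78 in introns and 45 in the CDS, and all 26 FH-DHX36 reads in the 3'UTR. HOXD10, a known target of miR-10b, had 816 of 892 reads in the 3'UTR and 29 in the 5'UTR. With FH-DHX36, 137 of its 150 reads lay outside the 4 categories and 13 in the CDS. The 28 reads of HOXD3 were all in an intron.

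**Figure D3:**
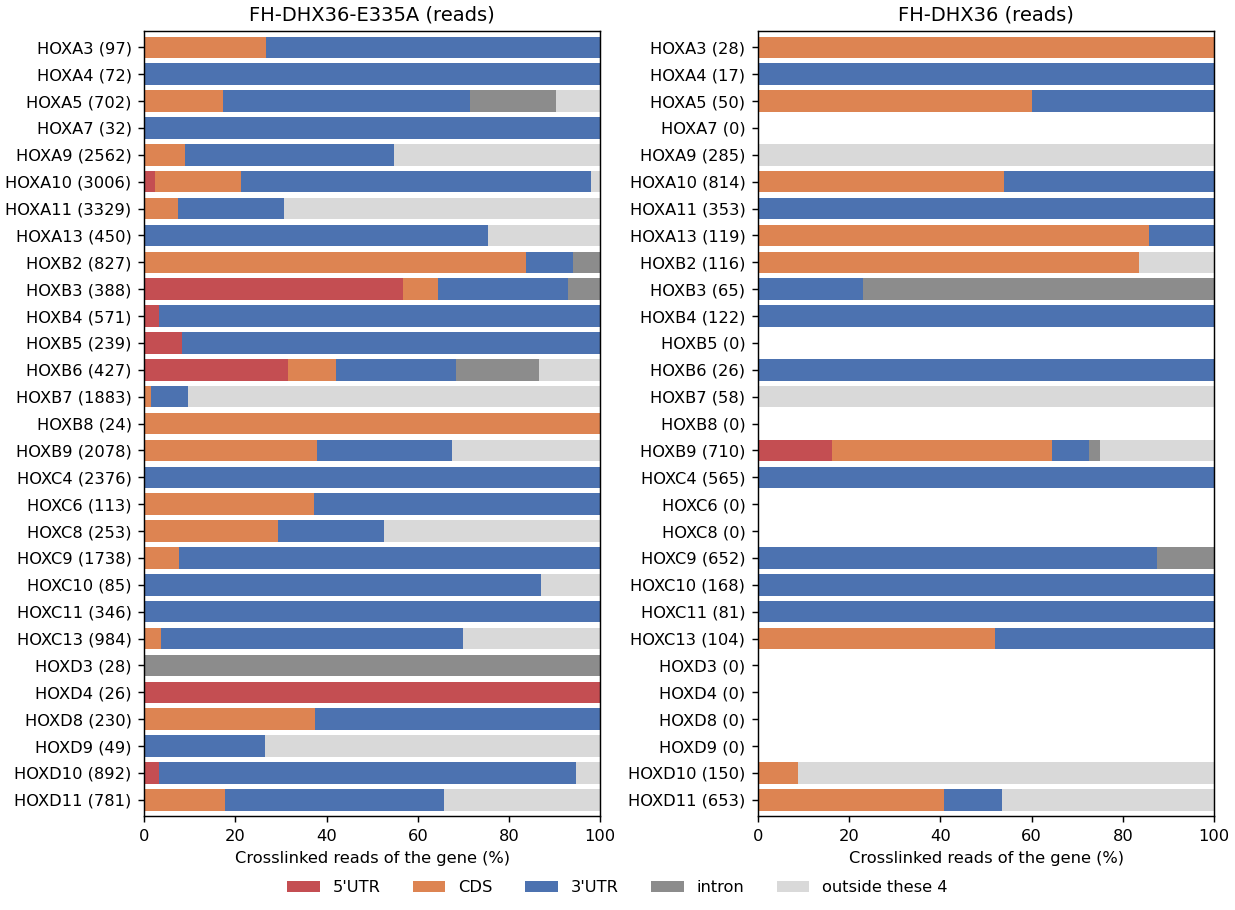
Share of the crosslinked reads of each of the 29 HOX genes with clusters (rows, with the number of reads in parentheses) in the 5'UTR, CDS, 3'UTR, introns and outside these 4 categories (x axis, percent), for FH-DHX36-E335A (left) and FH-DHX36 (right). An empty row has no reads. HOXC rows are mostly 3'UTR, HOXB2 is mostly CDS, and HOXB7 lies mostly outside the 4 categories in both panels.

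What lies outside the 4 categories is not given in the sources used here. It concerned 6920 FH-DHX36-E335A reads, of which HOXA11, HOXB7, HOXA9 and HOXB9 held 84.5%. For HOXA11 this was 2310 of 3329 reads (69.4%, 67.8 to 70.9%), in 1 of its 12 clusters, with 774 in the 3'UTR and 245 in the CDS, and all 353 FH-DHX36 reads lay in the 3'UTR. HOXB7 had 1700 of 1883 reads there (90.3%, 88.9 to 91.5%), in 4 clusters, besides 156 in the 3'UTR and 27 in the CDS, and all 58 FH-DHX36 reads. HOXA9 had 1160 of 2562 (45.3%) in 1 cluster, besides 1173 in the 3'UTR and 229 in the CDS, and all 285 FH-DHX36 reads. The HOXA11, HOXA9 and HOXB7 counts thus depend largely on clusters that were not assigned to the mRNA's regions. In GENCODE release 44, 27.2% of HOXA11 exonic bases overlap exons on the other strand, 19.2% of HOXA9 exonic bases overlap exons of another gene on the same strand, and HOXB7 has no overlap of either kind over its canonical transcript.

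HOX complexes are dense, and 22 of 39 HOX genes overlapped the span of another HOX gene, while 9 shared exonic bases with another gene on the same strand and 17 with a gene on the other strand. HOXC5, which had no cluster, shared 67.3% of its exonic bases, HOXA4 32.1%, HOXD11 26.5%, HOXA3 13.2% and HOXB6 11.2%. HOXA7 had 74.8% of its exonic bases opposite another gene. Whether the authors' assignment split reads in such places, or used the strand, is not given in the sources used here, and its part in the values of these genes was not tested. Of 30 noncoding RNAs of the HOX loci, 23 were in the table, and all 23 were listed at 0 clusters in both PAR-CLIPs. Genes with clusters were mostly protein-coding throughout the table, at 8616 of 9131 with FH-DHX36-E335A and 5592 of 5930 with FH-DHX36. The absence of clusters on these noncoding RNAs can therefore not be called particular to the HOX loci. Shared sequence between paralogs was small, since a median of 0.911% of the 20-nt windows of a HOX transcript occurred in another HOX transcript, with HOXA6 highest at 9.28%.

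NXPM sets reads against RNA abundance, without division by length. The median NXPM of HOX genes with clusters was 9.13 with FH-DHX36-E335A, against 5.66 over all bound genes, and 11.3 with FH-DHX36, against 7.84. With FH-DHX36-E335A 19 of 29 HOX genes lay above the median of bound genes, and with FH-DHX36 13 of 20. Median abundance, in the units behind NXPM, was 4.91 for the 29 genes, against 5.89 over all genes bound by FH-DHX36-E335A. The median HOX gene thus lay at percentile 60.7 of NXPM among bound genes with FH-DHX36-E335A and at 58.3 with FH-DHX36.

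HOXC4 had the highest HOX NXPM in both PAR-CLIPs, at 55.2 with FH-DHX36-E335A (rank 912 of 9131 bound genes) and 53.2 with FH-DHX36 (rank 752 of 5930). HOXB4 was next in both, at 45.6 and 39.5. Its abundance of 1.43, by which its reads are divided in this score, was among the lower HOX values. In the regional score, which the authors scaled to the reads of the region, HOXC4 had a 3'UTR NXPM of 104 and 138, and HOXB4 of 82.7 and 103. These paralogs of group 4 were followed with FH-DHX36-E335A by HOXA11 (39.7), HOXD10 (26.9) and HOXC9 (21.3). With FH-DHX36 the next were HOXC9 (32.4), HOXB9 (26.2) and HOXD11 (26.0). The lowest FH-DHX36-E335A NXPM was that of HOXC10 (1.09), which had 8.76 with FH-DHX36, and the lowest FH-DHX36 NXPM was that of HOXB6 (0.859, against 3.48 with FH-DHX36-E335A).

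By complex, the median NXPM with FH-DHX36-E335A was 7.06 for HOXA, 15.9 for HOXB, 17.1 for HOXC and 8.15 for HOXD, over genes with clusters. By paralog range it was 7.06 for paralogs 1 to 3, 4.93 for 4 to 8 and 14.7 for 9 to 13. The posterior genes also had the higher abundance, with a median of 9.10 against 2.75 for paralogs 4 to 8 and 2.28 for 1 to 3. The higher read numbers of posterior paralogs thus went with higher abundance as well as with higher NXPM. The rank correlation of NXPM between both PAR-CLIPs was 0.764 over 20 genes and 0.789 over all 5669, and both scores share the abundance they are divided by.

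**Figure D4:**
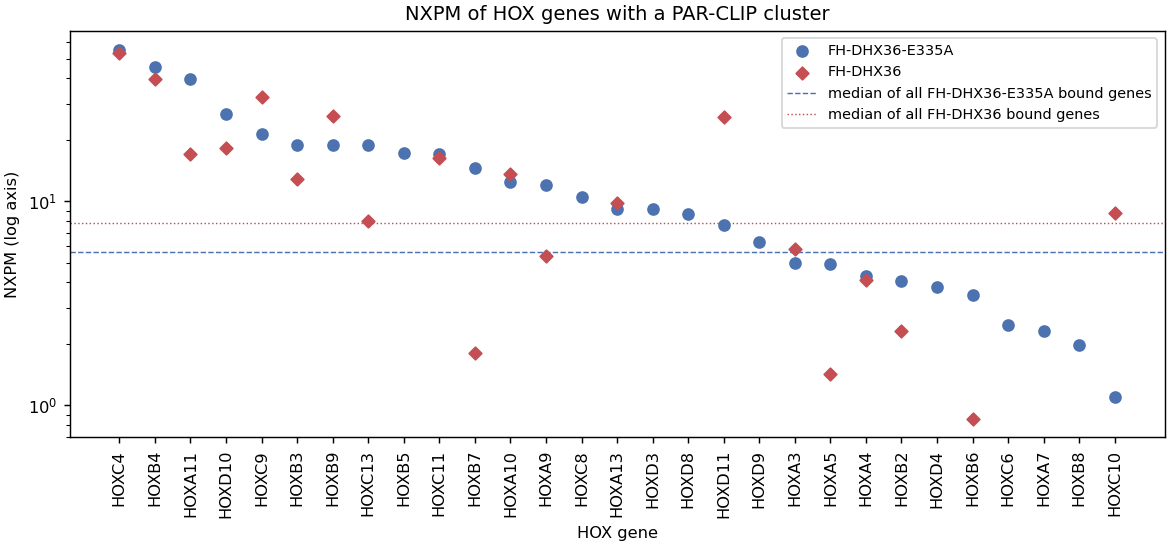
NXPM (y axis, log scale) of the 29 HOX genes with clusters, ordered by the FH-DHX36-E335A value, with FH-DHX36-E335A as circles and FH-DHX36 as diamonds. The dashed line (5.66) and the dotted line (7.84) are the medians over all bound genes of the respective PAR-CLIP. HOXC4 and HOXB4 are highest in both, and HOXB7 and HOXC10 lie far apart between the PAR-CLIPs.

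Reads and abundance went together among HOX mRNAs. Across the 29 genes with FH-DHX36-E335A clusters, the rank correlation of reads with abundance was 0.784, and across all 9109 genes compared it was 0.316. The number of clusters was related to abundance in the same way, with a rank correlation of 0.812. HOXA10 (abundance 27.6), HOXA9 (24.5) and HOXB2 (23.1) were the most abundant, and HOXD3 (0.350), HOXD4 (0.782) and HOXD9 (0.888) the least. Genes away from this trend were HOXC4, with 2376 reads at an abundance of 4.91, HOXB4, with 571 at 1.43, and HOXC10, with 85 at 8.88. In FH-DHX36 the correlation over 20 genes was 0.322, against 0.216 over 5915 genes. The rank correlation of reads with transcript length was 0.0212 over 29 genes, and that of 3'UTR reads was 0.234 with 3'UTR length and 0.111 with the number of 3'UTR matches to the pattern with at least 2 G. The points share 1 library pool, and abundance was recovered from the reads and NXPM of the same table.

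**Figure D5:**
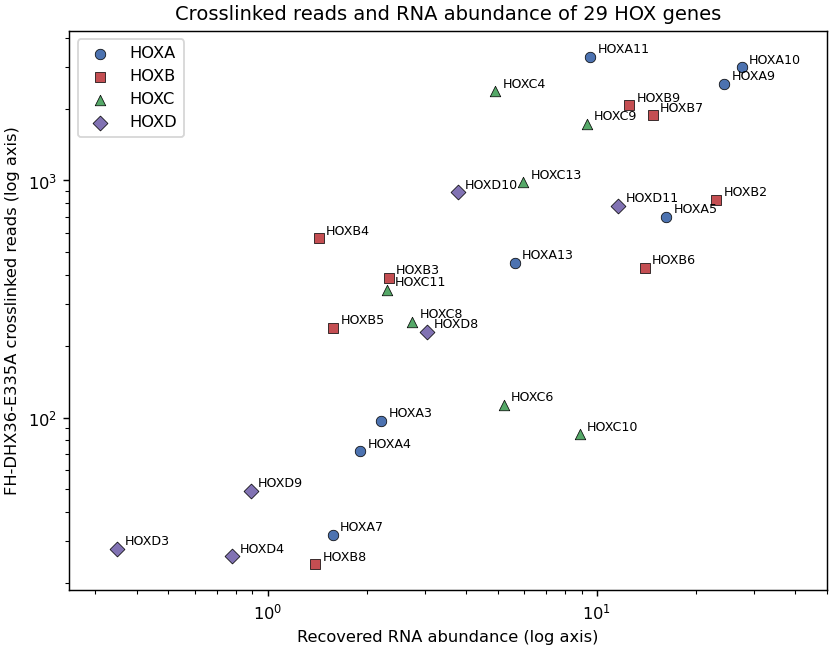
FH-DHX36-E335A crosslinked reads (y axis, log scale) against RNA abundance recovered from NXPM (x axis, log scale) for the 29 HOX genes with clusters, marked by complex. Reads rise with abundance, with HOXC4 and HOXB4 above the trend and HOXC10 and HOXC6 below it.

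HOX proteins bind DNA together with TALE homeodomain cofactors of the PBX, MEIS, PKNOX and TGIF families. Of 11 such genes in the table, 6 had FH-DHX36-E335A clusters and 4 had FH-DHX36 clusters, with 894 and 703 RPM. Over protein-coding genes the shares with clusters were 48.1% and 31.2%, and both counts are near them. TGIF2 had more reads than any HOX gene, with 6016 and 999 reads and an NXPM of 128 and 86.0. PBX3 had 625 and 169 reads and MEIS2 234 and 52. PKNOX1 (264 reads) and TGIF1 (202) were listed only with FH-DHX36-E335A.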

How the data were processed

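PAR-CLIP libraries of 2 biological replicates per cell line were mapped by the authors to hg19, and clusters were called with PARalyzer in PARpipe at default settings and annotated with GENCODE v19. The submitters' processing notes name bcl2fastq 2.17.1, and no other version was given in the sources used here. The authors deposited counts of clusters and of crosslinked reads per gene and region, without normalization, and NXPM, a score that the authors scaled to the total reads and divided by RNA abundance from Cufflinks. The way replicates were joined was not given in those sources, and 0 columns belonged to other samples.

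From these values, RPM (crosslinked reads per 1000000), ratios of shares (exact conditional intervals), Wilson intervals and rank correlations were computed with Python 3.11.15, pandas 2.3.3, numpy 2.4.6 and scipy 1.17.1, and figures were drawn with matplotlib 3.10.9. Reads outside the 4 regions are the difference of the total and the regional reads. Abundance was recovered as scaled reads over NXPM minus 0.001, and the values from both PAR-CLIPs agreed within 0.1% for 20 of 20 HOX genes. On data simulated with the same formula, the recovery returned 100% of the abundances for the 9131 and the 5930 genes with clusters. This outcome follows from the formula, so it checks the arithmetic only and not whether the authors' NXPM follows it. Regions, overlaps and G-runs were taken from canonical transcripts of GENCODE release 44 on GRCh37, the build of hg19, with the stop codon as part of the CDS. All 349 G-run windows without an intron were identical to the genome sequence. PCR copies are not independent molecules, so that intervals cover counting error only. Depth was 8752127 and 2160413 crosslinked reads, and no floor was set for genes at 0, since the table lists only reads within clusters.

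All HOX genes with clusters are named, with regional reads for the 10 genes with the most FH-DHX36-E335A reads and for all with FH-DHX36 clusters, and genes of other lists are the first by FH-DHX36-E335A reads. Members and lists were chosen with earlier results of these data known. EZH1, the genes called off the trend with abundance, and those singled out for overlaps were chosen after their values were seen. No test and no p-value was computed. A few genes and sequences are not reported here.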

Additional observations from a re-analysis of the deposited data

How the results depend on the processing

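No paired analysis was possible because the table gives 1 value per gene and cell line. The number of HOX genes with clusters was 21 to 28 with FH-DHX36-E335A (29 as reported) under stricter minimums of clusters or reads, and 14 to 18 with FH-DHX36 (20 as reported), except that 13 had at least 100 FH-DHX36 reads, where fewer reads are available. The share of all genes at these minimums is not given here, so that these counts cannot be set against a background. The 3'UTR share of HOX clusters, in place of reads, was 52.6% with FH-DHX36-E335A (55.02% by reads) and 41.0% with FH-DHX36 (49.1% by reads), against 48.4% and 40.8% of all clusters. Without HOXA11, whose reads lie mostly outside the 4 regions, the FH-DHX36-E335A share was 59.99%, and with genes weighted equally the shares were 55.2% and 49.0%. The median ratio of HOX shares was 1.10, and 1.05 to 1.16 with other totals, exonic reads only or a minimum of 50 reads. With clusters in place of reads it was 0.556, below 1, where all genes gave 0.834, and the cause was not tested. With exonic reads only, added after the data were seen, 4 rather than 6 HOX genes were at least 2 times higher with FH-DHX36-E335A and 2 as before with FH-DHX36. The median HOX percentile among bound genes was 60.7 (FH-DHX36-E335A) and 58.3 (FH-DHX36) by NXPM, and 58.0 to 68.9 and 62.1 to 67.4 under its alternatives. With runs of at least 3 G in place of 2, 9 rather than 23 HOX genes with clusters held a 3'UTR match, a stricter pattern by construction, and the other settings gave 24 and 25. The missing replicate values limit every comparison of the cell lines.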

Other observations

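HOX transcription is kept on or off by Polycomb and Trithorax group proteins. Of 24 such regulators, 19 had FH-DHX36-E335A clusters and 17 had FH-DHX36 clusters, against 48.1% and 31.2% of protein-coding genes, with 23768 and 7803 crosslinked reads. CBX6, a reader of the Polycomb mark, held 9320 and 3335 of these, PHC3 2144 and 616, BMI1 1953 and 91, ASH1L 1660 and 425, and WDR5 1395 and 176. EZH1, a Polycomb methyltransferase, had 94 FH-DHX36-E335A reads in 1 3'UTR cluster. Its 1362 FH-DHX36 reads lay in 1 intron cluster, with none in exons. Reads in 3'UTRs made up 73.7% of the list's FH-DHX36-E335A reads and 52.8% of its FH-DHX36 reads. Introns held 2444 of its FH-DHX36 reads, of which 1362 came from EZH1.

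Of 59 other homeobox genes of the ANTP class, 21 had FH-DHX36-E335A clusters and 8 had FH-DHX36 clusters, against the same 48.1% and 31.2%, with 13729 and 3141 reads. Of 50 forkhead genes, 26 and 16 had clusters, near the same 48.1% and 31.2%, with 27231 and 6427 reads. Of these reads 71.0% and 78.8% lay in 3'UTRs, against 53.3% and 38.4% over all genes. A single forkhead gene held 3142 of the FH-DHX36 reads, all in the 3'UTR.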
